A study of Mus musculus with 8 samples.

Results

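The respiratory chain genes of mouse CD8+ T cells were examined with and without the liver X receptor (LXR) agonist RGX-104. Members were taken by symbol from the deposited count table: names beginning Nduf (followed by a, b, c, s or v and a digit), Uqcr, Cox4 to Cox8 or Atp5, Sdha to Sdhd, and the names of the protein-coding genes of the mitochondrial genome. This gave 96 of 41730 rows, namely 87 protein-coding genes, 3 pseudogenes and 6 copies of genes on alternate scaffolds. All 96 are nuclear rows. No row matched the names of the protein-coding genes of the mitochondrial genome, so only the nuclear side of the chain is described.

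The cells were OT-I CD8+ T cells, whose transgenic receptor recognises the ovalbumin peptide SIINFEKL. They were cultured with bone marrow-derived dendritic cells (BMDCs) that had been pulsed with this peptide and were LXR-/-, in DMSO vehicle (control, 4 libraries) or in 2 µM RGX-104 (4 libraries). T cells were then sorted by flow cytometry and total RNA was sequenced. Both groups share the OT-I T cells and the LXR-/- dendritic cells, and the loss of LXR is given for the presenting cells and not for the sequenced ones. Whether replicates were separate cultures or mice is not in the labels, so a p-value here reflects only how these libraries varied, and part of that may be technical.

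The respiratory chain sits in the inner mitochondrial membrane. Complex I (NADH dehydrogenase, Nduf genes) and complex II (succinate dehydrogenase, Sdh genes) pass electrons to coenzyme Q, complex III (Uqcr genes) passes them to cytochrome c, and complex IV (cytochrome c oxidase, Cox genes) to oxygen. Complex V (ATP synthase, Atp5 genes) uses the proton gradient that complexes I, III and IV build to make ATP. Complexes I, III, IV and V combine subunits encoded in the nucleus with core subunits encoded in the mitochondrial genome, whereas complex II is wholly nuclear. Activated CD8+ T cells are known to increase both their mitochondrial mass and their glycolysis.

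Levels are in CPM, the counts of a gene relative to all counts of its library, scaled by the trimmed mean of M values (TMM), and are given per library or as mean ± SD over the 4 libraries of a group. Where a pair of means is given, control comes first and RGX-104 follows. Library totals ranged from 30642316 to 37714355 counts. Changes are log2 fold changes, RGX-104 over control, from edgeR's quasi-likelihood test, and a gene was called at a Benjamini-Hochberg adjusted p under 0.05 over all 13290 tested genes. Abca1, a cholesterol efflux transporter and LXR target, marked the treatment labels: it was at 1.75, 2.09, 1.38 and 1.64 CPM in the control libraries and at 118, 128, 132 and 121 CPM in the libraries with RGX-104. T cell identity genes (Cd3d, Cd8a and 9 others) summed to 3104 to 3209 CPM in control and 2987 to 3043 CPM with RGX-104, so these sums did not overlap. Of 10 tested, 2 were called higher and 4 lower, 60.0% beside 8.95% of all tested genes called. Dendritic cell and macrophage markers summed to 790.7 to 843.2 and 782.9 to 801.8 CPM, with 7 of 16 tested. Which cells the RNA of this list came from was not tested. Cd74 and Ctss were called higher and Ccr7 lower, 42.9% of those tested beside the same 8.95%. Of these 7 tested markers 6 lay above control, with a median change of 0.25. The dendritic cell marker Itgax had 17 to 34 counts per library, and the dendritic cell markers Xcr1 and Clec9a at most 7. Among myeloid markers of the list, Csf1r, Lyz2 and Adgre1 had at most 5. B cell marker sums were at most 5.454 CPM, NK marker sums 46.46 to 56.65 CPM (nearly all Eomes, which T cells also express) and erythroid and neutrophil sums at most 0.7073 CPM. The part of these differences in the values below was not tested. In bulk RNA, fewer cells of a type and less RNA per cell cannot be told apart.

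With RGX-104 the respiratory chain genes lay close to their control levels, with 1 exception. Of the 96 rows 77 could be tested, and 0 were called higher and 1 lower, which is 1.30% of those tested against 8.95% of all tested genes called in either direction (4.82% higher and 4.13% lower). The gene called lower was Cox6a2, an isoform of a complex IV subunit. At an unadjusted p under 0.05 there were 2 higher and 7 lower members, 11.7% against 22.2% of all tested genes. limma-voom called 1 member and DESeq2 called 0, since it gave Cox6a2 no adjusted p. Where libraries of the same column number were paired as a block, 4 members were called lower (Cox6a2, Ndufs1, Ndufs7 and Atp5g2) and 0 higher, 5.19% against 15.2% of all tested genes (8.34% higher and 6.82% lower).

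The members other than Cox6a2 differed little between the groups. For 72 of the 77, or 93.5%, the whole 95% confidence interval of the change lay within 1.2-fold in either direction. Over all tested genes this share was 62.3%. In the lists of regulators, assembly factors, metabolism and ribosomes below it ran from 88.9% (regulators) to 100% (fatty acid oxidation, mitochondrial DNA expression). Outside Cox6a2 the largest change in size was 0.12 on the log2 scale, in the ATP synthase gene Atp5l. The median change was -0.01, with 27 members above 0 and 50 below, against 0.00 for all tested genes. It was 0.0004 under upper quartile scaling, so its sign depends on the scaling. Replicates agreed closely: the median coefficient of variation of the members was 3.11% among control and 2.72% among RGX-104 libraries. It was 5.05% and 4.49% over all tested genes, 3.63% and 2.91% in the mitochondrial ribosome list and 2.47% and 1.97% in the cytosolic ribosome list. Of the 77 members 74 had a mean log2 CPM of at least 1. A comparison with genes of similar level was not made, so these shares and coefficients do not set the chain apart.

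**Figure D1:**
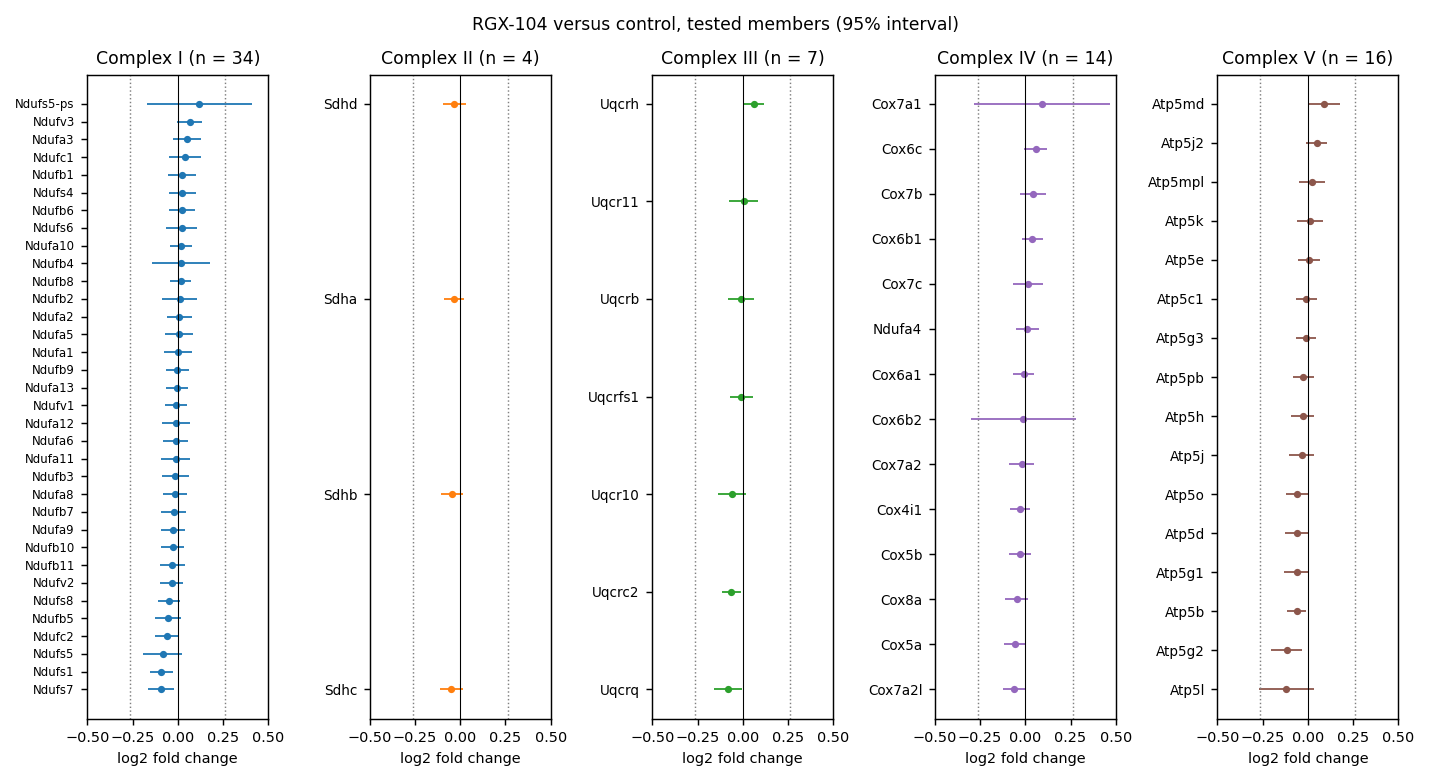
Log2 fold change (RGX-104 over control, x axis) of 75 of the 76 tested members other than Cox6a2, grouped by complex (y axis, gene names), with points for the edgeR estimate, lines for its 95% confidence interval and dotted lines at 1.2-fold either way. Nearly all intervals lie inside the dotted lines; those of Ndufs5-ps, Cox6b2, Cox7a1 and Atp5l, all of low level, reach past them.

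The sums over each complex gave the same picture. All 96 rows together summed to 10309, 10155, 10466 and 10595 CPM in the control libraries and 10101, 10213, 10083 and 10304 CPM in the libraries with RGX-104, 1.04% and 1.02% of all CPM. The groups overlapped, and the mean was 1.98% below the control mean. Complex V held the largest sum, 4359 ± 93.7 CPM in control and 4234 ± 40.5 CPM with RGX-104, of which Atp5b alone gave about 2250. Complex I followed with 2514 ± 38.3 and 2486 ± 19.5 CPM, complex IV with 1792 ± 35.3 and 1774 ± 31.4 CPM, complex II with 884.1 ± 25.4 and 861.2 ± 12.9 CPM, and complex III with 832.5 ± 17.3 and 820.3 ± 16.8 CPM. The difference of means ran from -1.02% for complex IV to -2.85% for complex V. In every complex the groups overlapped. No test was made of these sums.

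**Figure D2:**
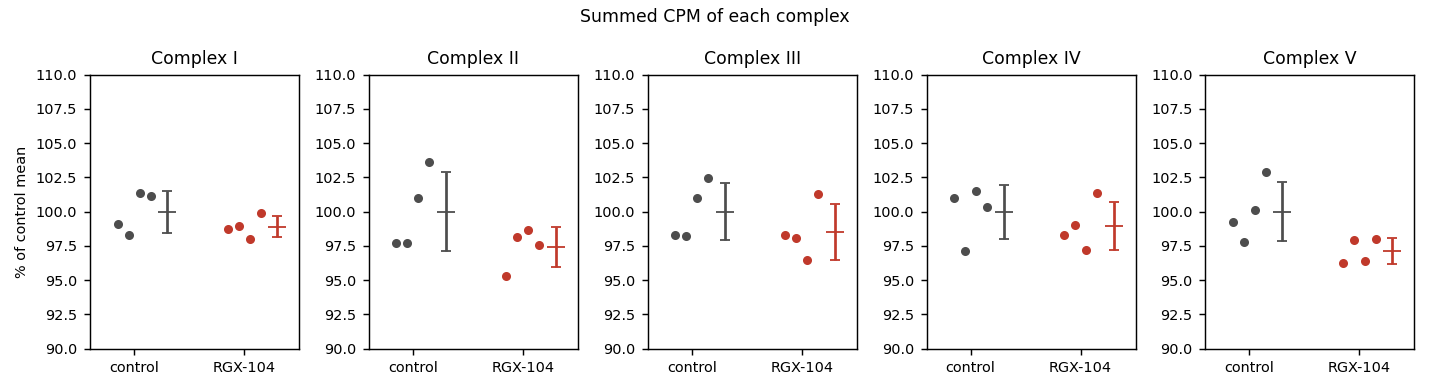
Summed CPM of the rows of each complex as a percentage of its control mean (y axis, from 90% to 110%), by group (x axis); points are the 4 libraries of a group in replicate order, and the bar beside them is the mean with its SD. All libraries of every complex lie between 95% and 104% of the control mean, and the groups overlap.

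Cox6a2 encodes the heart and skeletal muscle form of subunit 6A of cytochrome c oxidase, and Cox6a1 the form found in most tissues. Cox6a2 lies on chromosome 7 from 128205435 to 128206366 and Cox6a1 on chromosome 5 from 115345652 to 115348958 (GRCm38, RefSeq annotation). Their coding sequences were compared because reads of near-identical genes can be credited to the wrong one. Over 288 aligned bases 62.5% were identical, and the longest run they shared was 12 bases. The 90 coding bases over which they were most alike, from bases 234 to 323 of the Cox6a1 and 189 to 278 of the Cox6a2 coding sequence, are given with capitals at the 19 positions that differ:
Cox6a1: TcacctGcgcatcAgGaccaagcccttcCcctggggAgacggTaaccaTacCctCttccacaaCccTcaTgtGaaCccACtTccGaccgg
Cox6a2: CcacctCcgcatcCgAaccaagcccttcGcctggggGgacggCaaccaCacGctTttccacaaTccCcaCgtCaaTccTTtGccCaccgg

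Even in this stretch, the differences recur every few bases. Cox6a2 had 21, 14, 21 and 24 counts in the control libraries and 3, 3, 1 and 4 in the RGX-104 libraries. Every control library was above every RGX-104 library. These counts are 0.602, 0.413, 0.579 and 0.647 CPM against 0.0971, 0.0849, 0.0309 and 0.126 CPM, with means of 0.560 ± 0.102 and 0.0846 ± 0.0397 CPM (SD, n = 4). The log2 change was -2.68 ± 0.38 (SE; 95% interval -3.47 to -1.90; edgeR adjusted p = 1.869e-05). From the counts alone, 80 in control against 11 in RGX-104 libraries, the level was 6.67-fold lower (exact 95% interval 3.54 to 13.9, counting error only). Among the 549 genes called lower it ranked 2 by size of change.

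The fall concerned a transcript at a very low level. Per kilobase of transcript, Cox6a1 was at 313.8 and 311.8 CPM and Cox6a2 at 0.824 and 0.1245 CPM. Cox6a1 itself was at 183, 177, 178 and 178 CPM in control and 176, 182, 174 and 180 CPM with RGX-104. The groups overlapped and its change was -0.01 ± 0.03 (95% interval -0.07 to 0.05; edgeR adjusted p = 0.881).

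Genes around Cox6a2 did not pass the test. The end of Cox6a2 overlaps Itgad, an integrin gene that lies from 128173933 to 128205504 and had 0 to 3 counts per library. Itgax, an integrin gene used as a dendritic cell marker, had 26, 27, 17 and 23 counts in control and 27, 34, 20 and 21 in RGX-104 libraries (edgeR adjusted p = 0.554). On the other side 9130023H24Rik (log2 -0.23, edgeR adjusted p = 0.190), Armc5 (0.00, adjusted p = 0.964) and Tgfb1i1 (0.37, adjusted p = 0.298) also did not pass. These neighbours were chosen by position.

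**Figure D3:**
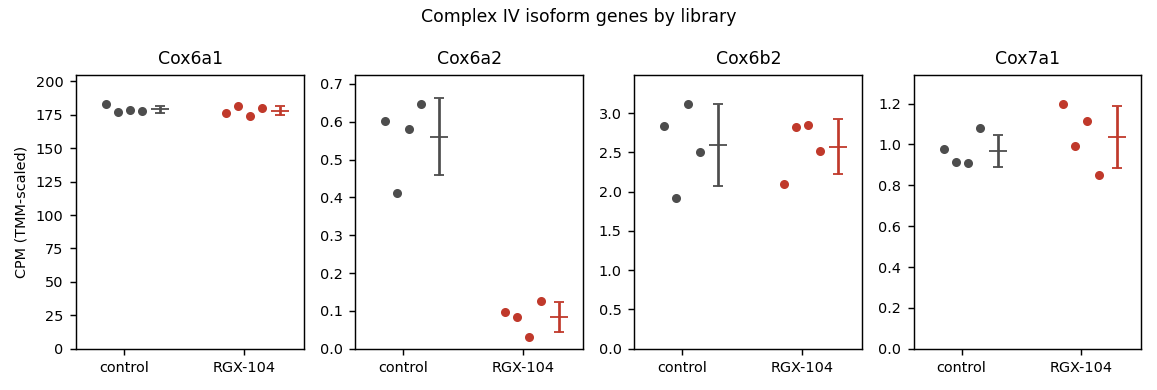
TMM-scaled CPM (y axis, from 0, a separate scale in each panel) of 4 complex IV genes by group (x axis); points are the 4 libraries of a group in replicate order, and the bar beside them is the mean with its SD. The Cox6a2 libraries separate, with control at 0.413 to 0.647 CPM and RGX-104 at 0.0309 to 0.126 CPM, whereas those of Cox6a1, Cox6b2 and Cox7a1 overlap.

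Other complex IV isoforms that are tied to particular tissues were also low, and none of them was called. Cox6b2, the testis form of subunit 6B, was at 2.60 ± 0.517 and 2.57 ± 0.348 CPM (edgeR adjusted p = 0.976), and its widespread partner Cox6b1 at 119 ± 2.72 and 122 ± 1.90 CPM (adjusted p = 0.460). Cox7a1, the muscle form of subunit 7A, was at 0.969 ± 0.0783 and 1.04 ± 0.152 CPM (adjusted p = 0.816). Its partner Cox7a2 was at 118 ± 5.28 and 117 ± 4.52 CPM (adjusted p = 0.791). The 95% interval of the change reached from -0.30 to 0.28 for Cox6b2 and from -0.28 to 0.47 for Cox7a1, so a change on the scale of that of Cox6a2 lies outside both intervals. Cox4i2, an isoform known from lung, had 2 to 8 counts per library and was not tested, with 25 counts in all control and 20 in all RGX-104 libraries. Cox8b had 0 or 1 count per library, and Cox7b2 and Cox8c had 0 in every library. A count of 0 in a single library allows up to 3 counts in it, by counting error only, and 0 in every library allows fewer per library.

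The widespread complex IV subunits lay close to control, and 0 of them were called. Cox4i1, which helps to regulate the enzyme, was at 282 ± 7.47 and 277 ± 3.90 CPM (log2 -0.03 ± 0.03, edgeR adjusted p = 0.570). Cox5a was at 221 ± 6.87 and 212 ± 6.46 CPM (-0.06 ± 0.03, adjusted p = 0.246). Cox8a, the widespread form of subunit 8 and the complex IV member of the highest level per length (435.6 and 421.5 CPM per kilobase), was at 247, 233, 233 and 245 CPM in control and 224, 240, 224 and 238 CPM with RGX-104, so its groups overlapped (adjusted p = 0.389). Cox7a2l, which helps complexes III and IV to join in supercomplexes, was at 98.5 ± 1.81 and 94.5 ± 2.54 CPM (-0.06 ± 0.03, adjusted p = 0.234). Ndufa4, first listed under complex I and since placed in complex IV, was at 140 ± 3.24 and 141 ± 5.22 CPM (adjusted p = 0.868), while its relative Ndufa4l2 had 0 to 4 counts per library.

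Complex I had 44 rows, of which 35 were tested and 0 called, and limma-voom and DESeq2 called 0 as well. At an unadjusted p under 0.05 there were 2, or 5.71% beside 22.2% of all tested genes. The block fit called 2, or 5.71% beside 15.2%. The median change was -0.01, and 34 of 35 intervals lay within 1.2-fold. The smallest p belonged to Ndufs1, the largest subunit of the electron-input arm, which carries iron-sulfur clusters and lies on chromosome 1 from 63143592 to 63176822. Ndufs1 was at 133, 143, 139 and 142 CPM in control and 125, 131, 131 and 135 CPM with RGX-104. The groups overlapped, but each RGX-104 library was below the control library of its own number. The change was -0.09 ± 0.03 (95% interval -0.15 to -0.03), with an edgeR adjusted p of 0.0725 and, with the block, 0.0158. Leaving out control replicate 1, the lowest control, gave an adjusted p of 0.0208, and testing with no filter on low counts gave 0.0389.

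Ndufs7 carries the last iron-sulfur cluster before coenzyme Q. It was at 79.7, 73.4, 75.0 and 78.7 CPM in control and 75.7, 69.5, 72.0 and 70.4 CPM with RGX-104, again lower within each number while the groups overlapped. Its change was -0.09 ± 0.04 (edgeR adjusted p = 0.103, and 0.0295 with the block). Ndufs8, a neighbour of Ndufs7 in the same arm, was at 85.3 to 86.7 CPM in control and 80.9 to 84.9 CPM with RGX-104. These groups did not overlap, yet its change of -0.05 ± 0.03 did not pass (adjusted p = 0.330). Ndufv1, which binds NADH, was at 123 ± 2.89 and 123 ± 3.38 CPM (-0.01 ± 0.03, adjusted p = 0.912).

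Ndufv3, an accessory subunit, was at 84.5 ± 2.09 and 88.3 ± 3.22 CPM (0.07 ± 0.03, edgeR adjusted p = 0.241). Ndufb9, an accessory subunit of the membrane arm, had the highest level per length in complex I (129.8 and 129.5 CPM per kilobase) and was at 91.4 ± 1.88 and 91.2 ± 2.55 CPM.

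Complex II, which is also an enzyme of the tricarboxylic acid cycle, had its 4 genes all slightly below control and 0 called, and limma-voom and DESeq2 called 0 as well, while 0 had an unadjusted p under 0.05. Sdha, the flavoprotein that oxidises succinate, was at 386, 389, 390 and 407 CPM in control and 375, 391.5, 389 and 380 CPM with RGX-104. Sdhb, the iron-sulfur subunit and the highest per length (168.5 and 163.3 CPM per kilobase), was at 187, 190, 196 and 197 CPM against 182, 185, 190 and 189 CPM. The groups overlapped in both genes. The changes were -0.03 ± 0.03 for Sdha and -0.05 ± 0.03 for Sdhb (edgeR adjusted p = 0.490 and 0.371). The membrane anchors Sdhc (97.8 ± 3.42 and 94.5 ± 2.25 CPM) and Sdhd (201 ± 9.18 and 196 ± 1.71 CPM) had adjusted p-values of 0.382 and 0.567. The median over the 4 genes was -0.04. The SD of the same median among single control libraries was 0.05. That is a spread of single libraries and not the error of a difference between groups of 4, so it does not measure the error of this change.

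Complex III had 7 tested of 9 rows and 0 called by edgeR, with or without the block, or by limma-voom or DESeq2. At an unadjusted p under 0.05 there were 3, or 42.9% beside 22.2% of all tested genes. These 3 did not share a direction. Uqcrc2, a core protein that holds the complex together, was at 254, 259, 261 and 264 CPM in control and 244, 250, 250 and 250 CPM with RGX-104. Uqcrh, the acidic hinge protein that helps cytochrome c to dock, was at 138, 136, 143 and 141 CPM against 145, 144, 144 and 149 CPM. Neither pair of groups overlapped, with Uqcrc2 on the lower and Uqcrh on the higher side. Their changes were -0.06 ± 0.03 and 0.06 ± 0.03 (edgeR adjusted p = 0.151 and 0.201).

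Uqcrq, a small accessory subunit, was at 79.7 ± 2.80 and 75.4 ± 4.33 CPM (-0.08 ± 0.04, edgeR adjusted p = 0.201). Uqcr10, another small subunit, was at 36.3 to 36.9 CPM in control and 33.1 to 35.9 CPM with RGX-104 without overlap (adjusted p = 0.381). Uqcrfs1, the Rieske iron-sulfur protein, which receives electrons from coenzyme Q, was at 212 ± 8.29 and 211 ± 6.26 CPM (-0.01 ± 0.03, adjusted p = 0.908). Uqcrh had the highest level per length of the complex (255.1 and 266.1 CPM per kilobase).

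Complex V had 16 tested of 18 rows and 0 called, and limma-voom and DESeq2 called 0 as well. At an unadjusted p under 0.05 there were 3, or 18.8% beside 22.2% of all tested genes. The block fit called 1, or 6.25% beside 15.2%. The median change was -0.03, and 11 of 16 lay below 0. It ranged from -0.0346 to -0.0113 when a library was left out, nearest to 0 without control replicate 4 (also -0.0167 without control replicate 3), and was -0.006 with 1 surrogate variable. Atp5b, the catalytic beta subunit, had the highest level per length of all members (1174 and 1125 CPM per kilobase). It was at 2236, 2193, 2241 and 2330 CPM in control and 2135, 2186, 2149 and 2150 CPM with RGX-104. These groups did not overlap, and the gap between the nearest libraries, 2193 and 2186 CPM, was small. The change was -0.06 ± 0.02 (95% interval -0.11 to -0.01; edgeR adjusted p = 0.123, and 0.0734 with the block). The Atp5b counts are uncertain in so far as the gene overlaps Mir677 and Snord59a.

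Subunit c, which forms the rotating ring in the membrane, is encoded by 3 genes whose mature protein is known to be the same. Over the last 228 bases of their coding sequences, Atp5g1 and Atp5g2 were 85.1% identical, Atp5g1 and Atp5g3 79.8%, and Atp5g2 and Atp5g3 78.5%, with longest shared runs over the whole coding sequence of 21, 11 and 8 bases. Atp5g2 was at 35.9, 36.3, 37.4 and 37.2 CPM in control and 30.9, 34.3, 34.3 and 35.7 CPM with RGX-104. The groups did not overlap, and RGX-104 replicate 1 was the lowest. Its change was -0.12 ± 0.04 (95% interval -0.21 to -0.03), with an edgeR adjusted p of 0.0847 and, with the block, 0.0253. Atp5g3, the most abundant of the 3 at 401 ± 7.10 and 398 ± 7.16 CPM (adjusted p = 0.847), and Atp5g1 at 71.2 ± 2.08 and 68.2 ± 1.99 CPM (adjusted p = 0.282) did not pass.

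Smaller subunits lay on both sides. Atp5md, a small subunit at the interface of ATP synthase dimers, was at 35.3 ± 0.905 and 37.6 ± 2.02 CPM (0.09 ± 0.04, edgeR adjusted p = 0.201). Atp5j2, a subunit of the membrane part, was at 108 to 110 CPM in control and 111 to 117 CPM with RGX-104 without overlap (0.05 ± 0.03, adjusted p = 0.336). Atp5l, also of the membrane part, was at 8.15 ± 0.522 and 7.52 ± 0.312 CPM (-0.12 ± 0.07, adjusted p = 0.369). Over the whole chain the groups did not overlap in 2 members on the higher side (Uqcrh and Atp5j2) and 6 on the lower side (Cox6a2, Ndufs8, Uqcrc2, Uqcr10, Atp5b and Atp5g2), against 7.07% and 7.45% of all tested genes. Names in these counts of members were chosen after their values were seen.

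Members with too few counts to test numbered 19. Atp5a1, the alpha partner of Atp5b, Uqcrc1, the partner of Uqcrc2, and the complex I genes Ndufs3 and Ndufa7 each had at most 2 counts in any library. Each of these 4 also has a copy on an alternate scaffold, and the 6 copy rows had 0 or 1 count. A low count of such a gene is not read here as low expression, and these core subunits are in effect unmeasured. The remaining untested rows were tissue isoforms, Ndufb4b and Ndufb4c, and 2 pseudogenes. Cox7c-ps1, a pseudogene, had 7 counts over the control and 20 over the RGX-104 libraries, and reads of Cox7c could be credited to it.

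The promoters were compared because respiratory chain genes of the nucleus are known to share binding sites for NRF1 (nuclear respiratory factor 1) and for ETS factors such as GABP. RefSeq (GRCm38.p6) windows of 300 bases, 250 before and 50 after the start, were matched for 70 members, Cox6a2 not among them. An NRF1 motif (GCGCNTGCG, either strand) was in 24 of 70, or 34.3%, against 7.12% of the promoters of 27025 genes. An ETS motif (CCGGAAG, either strand) was in 17 of 70, or 24.3%, against 9.93%, and a YY1 motif (AAGATGGCG, either strand) in 7 of 70 against 1.64%. The LXR response element, a pair of AGGTCA repeats in the same direction with 4 bases between them (either strand), was in 0 of 70 and in 0.0148% of all genes. This exact form was in only 4 of 27025 genes, so nearly any set of 70 would hold 0, and no conclusion is drawn from it. The TATA motif (TATAAA, either strand) was in 11.4% against 15.7%. The NRF1 and YY1 motifs were shortened by 1 letter after a first count; their longer forms were in 24.3% against 5.19% and in 7.14% against 0.995%. These motifs do not contain one another. Member windows had a median GC content of 57.3% against 52.7%, and motifs rich in G and C match more often in such sequence. A match is a description of the letters and not of binding.

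The 250 bases before the start of Cox6a1 and of Atp5g2 are shown, with the NRF1 motif in capitals, for the widespread partner of the called gene and for the ring gene called with the block. Capitals mark only matches that do not overlap. In both genes a further match, for the other strand, overlaps the marked GCGCATGCG and is not marked apart from it. Cox6a1 (chr5:115348959-115349208, minus strand) holds GCGCATGCG and, for the other strand, CGCAGGCGC. Atp5g2 (chr15:102671048-102671297, minus strand) holds GCGCATGCG, which ends 33 bases before the start.
Cox6a1: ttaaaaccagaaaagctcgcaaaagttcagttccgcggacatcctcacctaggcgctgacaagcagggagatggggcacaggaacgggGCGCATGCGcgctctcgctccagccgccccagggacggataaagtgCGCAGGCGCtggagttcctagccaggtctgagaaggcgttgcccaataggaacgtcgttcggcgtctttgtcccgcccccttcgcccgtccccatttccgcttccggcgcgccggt
Atp5g2: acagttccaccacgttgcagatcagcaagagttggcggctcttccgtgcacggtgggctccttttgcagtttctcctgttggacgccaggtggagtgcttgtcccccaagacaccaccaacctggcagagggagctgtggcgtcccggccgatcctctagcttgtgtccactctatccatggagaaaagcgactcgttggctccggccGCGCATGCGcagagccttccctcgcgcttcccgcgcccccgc

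Among known regulators of these genes, 8 of 9 tested were not called. Nrf1 was at 91.0 and 94.0 CPM, Gabpa, the ETS factor of GABP, at 128 and 123 CPM, Yy1 at 210 and 212 CPM and the coactivator gene Pprc1 at 238 and 234 CPM (edgeR adjusted p = 0.418, 0.247, 0.916 and 0.628). Ppargc1a, the coactivator that drives mitochondrial growth in muscle and fat, had 0 to 2 counts per library. Myc, which drives growth and metabolism in activated T cells, was at 481, 499, 524 and 545 CPM in control and 433, 417, 423 and 464 CPM with RGX-104, without overlap. Its change was -0.24 ± 0.04 (adjusted p = 7.336e-04). It was the 1 regulator called of 9 tested (0 higher, 1 lower), 11.1% beside 8.95% of all tested genes.

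Of 47 tested chaperones and assembly factors, 1 was called higher and 1 lower, 4.26% against 8.95% of all tested genes, and 43 had intervals within 1.2-fold. The median change was -0.03, and 36 of 47 lay below 0. At an unadjusted p under 0.05 there were 2 higher and 7 lower, 19.1% beside 22.2% of all tested genes (11.5% higher and 10.7% lower). The list summed to 1649 to 1705 CPM in control and 1609 to 1642 CPM with RGX-104, without overlap. Ttc19, which helps complex III to mature, was at 38.9, 37.5, 36.6 and 32.8 CPM in control and 47.3, 41.4, 40.5 and 39.5 CPM with RGX-104, without overlap. Its change was 0.21 ± 0.06 (edgeR adjusted p = 0.0355). Sdhaf2, which attaches the flavin to Sdha, was at 59.7, 58.5, 58.8 and 62.5 CPM against 56.5, 54.4, 55.4 and 52.8 CPM, also without overlap, with a change of -0.13 ± 0.03 (adjusted p = 0.0195). With the block 1 was higher and 5 lower, 12.8% against 15.2%: Sdhaf1, Sdhaf2, Cox15, Sco1 and Coa5 were lower, of which Sco1 carries copper and Cox15 makes haem A for complex IV.

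**Figure D4:**
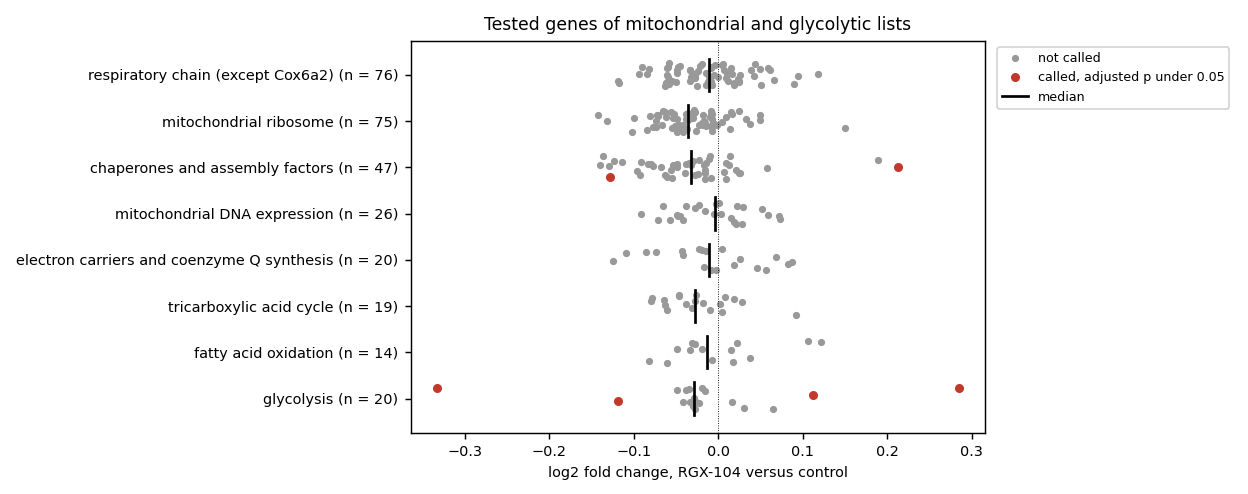
Log2 fold change (RGX-104 over control, x axis) of each tested gene of 8 lists (y axis, with the number tested; vertical scatter within a list is only to separate points), grey when not called, red when called by edgeR at adjusted p under 0.05, with a bar at the median. The respiratory chain genes lie between -0.12 and 0.12 with none called once Cox6a2 is left out, and the glycolysis list holds 4 called genes.

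The systems that serve the chain held few calls, where 8.95% of all tested genes were called, and 15.2% with the block. Of 26 tested genes of mitochondrial DNA expression 0 were called by edgeR with or without the block, limma-voom or DESeq2. At an unadjusted p under 0.05 there were 2, or 7.69% beside 22.2% of all tested genes. Tfam, which packages mitochondrial DNA, was at 108 and 106 CPM and Lrpprc, which stabilises mitochondrial mRNA, at 243 and 243 CPM. Of 75 tested mitochondrial ribosome genes 0 were called and 6 had an unadjusted p under 0.05, 8.0% beside 22.2%. The block called 1 (1.33%), limma-voom 1 and DESeq2 0. The median of these ribosome genes was -0.04, and 64 of 75 were below 0. Of 20 electron carrier and coenzyme Q synthesis genes 0 were called by any of these fits and 3 had an unadjusted p under 0.05, and Cycs, encoding cytochrome c, was at 81.1 and 77.1 CPM (edgeR adjusted p = 0.214).

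Of 19 tricarboxylic acid cycle genes 0 were called by edgeR and DESeq2 and 1 by limma-voom, 5 (26.3% beside 22.2% of all tested genes) had an unadjusted p under 0.05, and the block called 2 lower (10.5% beside 15.2%), Dlat and Ogdh, the E2 subunit of the pyruvate and the E1 subunit of the 2-oxoglutarate dehydrogenase complex. Of 14 fatty acid oxidation genes 0 were called by any of these fits, with 3 at an unadjusted p under 0.05, 21.4% beside 22.2%. The glycolysis list had 4 of 20 called, 2 in each direction, beside the 8.95% of all tested genes. Aldoc, an aldolase, rose from 29.7 ± 2.28 to 36.1 ± 2.82 CPM and Slc16a3, a lactate exporter, from 259 ± 4.46 to 280 ± 6.59 CPM. Ldhb fell from 8.97 ± 0.361 to 7.12 ± 0.233 CPM, and the hexokinase gene Hk1 from 341 ± 5.40 to 315 ± 10.4 CPM. Whether the glycolysis list and the respiratory chain differ was not tested. The cytosolic ribosome list had 0 of 72 higher and 2 lower, 2.78% beside 8.95%, with a median of -0.02 and 58 of 72 below 0. Its groups did not overlap in 8 on the lower side and 0 on the higher, against 7.45% and 7.07% of all tested genes.

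The mitochondrial genome was represented by its RNA genes, 2 rRNA and 22 tRNA rows, which are no members. Of 20 tested, 2 were called higher and 0 lower, beside 8.95% of all tested genes called in either direction. The levels varied far more between libraries than those of the nuclear members, with a median coefficient of variation of 18.7% in control and 28.5% in RGX-104 libraries, and 1 of 20 intervals lay within 1.2-fold. TrnP was at 44.0, 50.8, 44.9 and 47.6 CPM in control and 64.0, 55.7, 56.0 and 58.8 CPM with RGX-104, without overlap. Its change was 0.32 ± 0.05 (edgeR adjusted p = 1.53e-04). TrnS1 was at 0.946, 0.943, 1.32 and 0.863 CPM against 1.81, 1.75, 1.30 and 2.07 CPM, with RGX-104 replicate 3 inside the control range (0.76 ± 0.18, adjusted p = 0.00635).

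The 12S rRNA gene mt-Rnr1 was at 465, 470, 453 and 465 CPM in control and 642, 489, 490 and 549 CPM with RGX-104. The groups did not overlap, but the RGX-104 libraries spread widely and the change of 0.23 ± 0.09 did not pass (edgeR adjusted p = 0.215). The 16S gene mt-Rnr2 was at 559 to 823 CPM and 568 to 834 CPM and overlapped fully (0.01 ± 0.17, adjusted p = 0.973). TrnE was at 110, 121, 112 and 122 CPM against 169, 127, 133 and 157 CPM, without overlap (0.33 ± 0.10, adjusted p = 0.114, and 0.0211 with DESeq2). RGX-104 replicate 1 was the highest library of mt-Rnr1, TrnE and TrnP. TrnR and TrnL2 were high in control replicate 2 (9.08 and 18.6 CPM) and RGX-104 replicates 1 and 2 (16.1 and 28.5, and 9.54 and 19.8 CPM), and at most 3.45 and 9.03 CPM in the other 5 libraries, a split that crosses the groups. Mature tRNAs are short and heavily modified, and the strand setting of the counts is not given in the sources used here, so reads of precursors and of genes on the opposite strand cannot be told apart from those of the tRNAs.

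**Figure D5:**
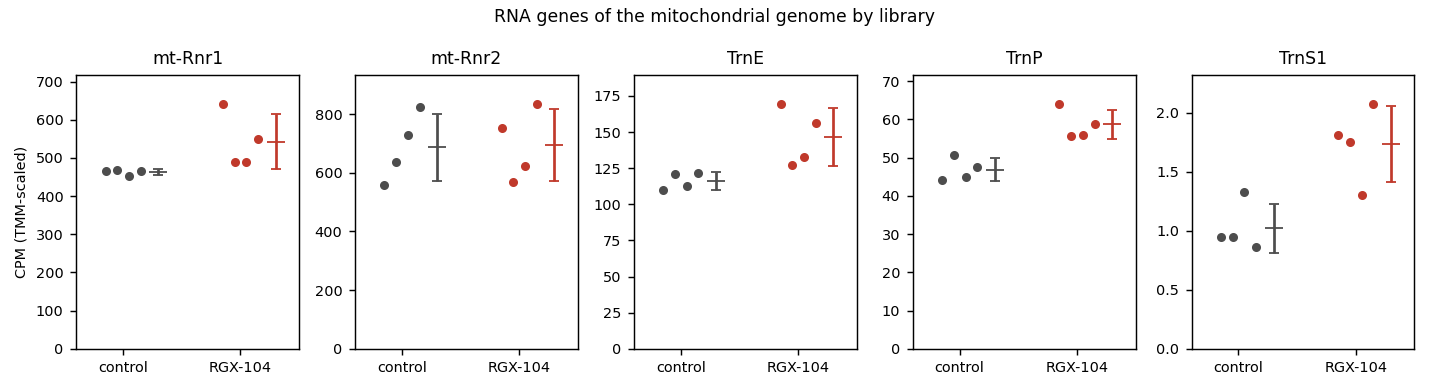
TMM-scaled CPM (y axis, from 0, a separate scale in each panel) of 5 RNA genes of the mitochondrial genome by group (x axis); points are the 4 libraries of a group in replicate order, and the bar beside them is the mean with its SD. In TrnP, TrnE and mt-Rnr1 the RGX-104 libraries lie above the control libraries with replicate 1 highest, whereas those of mt-Rnr2 overlap.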

How the data were processed

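The file deposited by the authors holds raw read counts per gene and library. Per the submitters' processing notes, the build was GRCm38 and the tools included STAR 2.7.5, cutadapt 2.10, DESeq2 1.4 and R 4.1.0. No source used here gives the counting step, annotation or strand setting, so counts of overlapping genes (31 members overlap another) and near-identical copies are uncertain. RGX-104 columns gave their group only, and replicates are numbered by column.

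Counts were tested across the whole table with edgeR 4.0.16 in R 4.3.3 (robust quasi-likelihood F-test, TMM, filterByExpr with a minimum count of 10 and total of 15, treatment as the only term). Standard errors came from the F statistic. Alternatives were DESeq2 1.42.0, limma-voom (limma 3.58.1) with sample weights, other scalings and filters, 1 surrogate variable (sva 3.50.0), a correction for length and GC content, summed copies, a replicate block and leaving out each library. The scripts were tested on simulated data. Levels per kilobase used the longest GENCODE M21 transcript paired with a RefSeq mRNA, in place of the longest RefSeq transcript that had been planned. Lengths were found for 94% of tested genes, and the relation to length used those of mean log2 CPM of at least 1.

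Column names carry the same numbers in both groups. The sample titles instead number on from control to RGX-104, so that no number is shared. Deviations from the group means of libraries with the same number correlated at 0.2546, 0.2329, 0.1215 and 0.3738 across genes, against -0.2749 to 0.1107 for other pairs. On this ground, taken from these same data, the numbers were used to pair libraries in the block fit. The lowest same-number value, 0.1215, lies close to the highest of the others, 0.1107, so the pairing is uncertain. What a number stands for is not given in the labels. Blocked values are printed beside the calls of members that they change, and are left out for the marker lists and the cytosolic ribosome.

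The members and lists were chosen with earlier results of these data known. Genes named with full values were those called, the 3 of smallest p and the highest per length in each complex, core subunits and isoform sets; other names were chosen after their values were seen. A gene that this rule names is not reported here.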

Additional observations from a re-analysis of the deposited data

Results flagged for a closer look

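In 112 groups of 4 libraries checked (tested members named by rule, the sums over complexes and mitochondrial RNA genes), 7 held a library far from the other 3, where chance gives about 1 in 20 groups, or 5.6. Succinate dehydrogenase genes gave 2 of them. RGX-104 replicate 1 held Sdhc at 91.15 CPM, with the rest of its group at 95.37 to 95.9 CPM, and control replicate 4 held Sdha at 407.2 CPM, with the rest at 386.3 to 389.7 CPM. In complex III, RGX-104 replicate 1 held Uqcrc2 at 244.0 CPM, and the rest 249.6 to 250.1 CPM. In complex IV, control replicate 1 held Cox6a1 at 183.1 CPM, and the rest 177.4 to 178.4 CPM. RGX-104 replicate 4 held Cox6b1 at 124.7 CPM, with the rest at 120.8 to 121.1 CPM, and Cox7a2 at 123.4 CPM, with the rest at 113.8 to 114.8 CPM. Control replicate 2 held the mitochondrial TrnR at 9.08 CPM, and the rest 2.538 to 3.45 CPM. These genes were not called with or without the block.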

How the results depend on the processing

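The count of members called lower was 1 in the main test, 0 with DESeq2 (no adjusted p for Cox6a2, unadjusted p = 1.391e-06), 2 with no filter, 0 with at least 1 CPM required (which removed Cox6a2), 4 with the replicate block, 3 at an adjusted p under 0.1, and 1 to 2 when a library was left out; 0 were called higher under any of these. Cox6a2 kept its call in each edgeR and limma-voom fit that tested it, with changes of -2.92 to -2.42 and adjusted p-values of 8.722e-09 to 0.0002075. Ndufs1 passed with no filter, without control replicate 1 and with the block, and Ndufs7 and Atp5g2 with the block only. Of all genes, 640 were higher and 549 lower, but 1109 and 906 with the block, and 689 and 885 after the length and GC correction. Leaving out 1 library gave 462 to 719 higher and 377 to 621 lower. Upper quartile scaling gave 752 and 438, and library totals 686 and 451. The complex III median, -0.0086, was -0.0548 after the length and GC correction, where the cause was not tested, and -0.0302 to 0.0006 when a library was left out; leaving out 1 library gave medians of -0.0163 to 0.0025 for complex I, -0.0392 to 0.0089 for IV and -0.0275 to -0.0057 for all members. Of 767 values under the alternatives 751 were counted as kept, including 34 sign changes of named genes that were not called. For genes this meant their direction and side of the threshold, and for medians a move of less than the replicate spread. Counts of called genes were kept when within a fixed ratio of the main count, so 462 higher genes beside 640 counted as kept. Changes as small as those of most members are within what depth and 4 libraries leave uncertain.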

Other observations

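Among members, shorter transcripts lay slightly higher. The change and the length were compared across the 74 tested members with a transcript length and a mean log2 CPM of at least 1. This leaves out Cox6a2, Cox7a1 and the pseudogene Ndufs5-ps. Spearman rho was -0.319 (Pearson r -0.297), against 0.0838 (0.0437) across 10175 tested genes chosen likewise. For the members rho was -0.168 after the correction for length and GC content. Members are not independent replicates and share libraries, so this is a description. Of the 37 members shorter than the median of 764 bases 16 were above 0, with a median change of -0.0085 on the log2 scale, and of the 37 others 9 were, with a median of -0.0301.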
